A study of Phaffia rhodozyma with 6 samples.

Results

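The 10 genes described here encode membrane subunits of the respiratory chain and ATP synthase that fungi with complex I carry in their mitochondrial DNA, as measured in the astaxanthin-producing yeast Phaffia rhodozyma. They were selected on gene name together with their high ratio of q2 to q1, the conditions of the authors' deposited table, and they are 10 of its 6363 genes. They comprise 5 NADH dehydrogenase subunits, 3 cytochrome c oxidase subunits, apocytochrome b and ATP synthase subunit 6. Because the difference between the conditions chose them, their own ratios are a description and carry no test.

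The study compared the mutagenised strain BPAX-A1 with the wild-type strain CBS6938, each in 3 fermenter cultures sampled in late exponential phase, when astaxanthin formation was fastest. Both strains grew on sucrose in defined medium at pH 5.5, 20 °C and 70% dissolved oxygen, and the labels do not name the mutations that BPAX-A1 carries. The authors' deposited table gives, for each gene, 1 FPKM value (fragments per kilobase of transcript and per 1000000 mapped fragments) in each of the conditions called q1 and q2. Neither the labels nor the headers say which strain is q1 and which is q2, so every direction is that of q2 against q1. No spread between cultures can be given, and the number of reads in each library is unknown.

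Respiratory complexes of the inner mitochondrial membrane are built from subunits encoded in 2 genomes. The mitochondrial DNA holds a handful of very hydrophobic core subunits, which the organelle's own RNA polymerase and ribosomes express, while most subunits are encoded in the nucleus and imported. Complex I (NADH dehydrogenase), complex III (which contains cytochrome b) and complex IV (cytochrome c oxidase) pump protons, and ATP synthase uses the gradient to make ATP.

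All 10 genes had higher values in q2, and all were at low levels in q1. In the authors' deposited table their FPKM values ran from 0.185 to 1.79 in q1, with a median of 0.635, and from 6.71 to 65.5 in q2, with a median of 20.0. The ranges of the 10 genes in q1 and q2 did not overlap, which their selection on a high ratio favours, so nothing is read from it. Summed over the 10, FPKM was 7.44 in q1 against 272 in q2, 36.6-fold higher, while the sum over all genes differed 2.10-fold. Their share of the FPKM of all genes was 7.23e-04% in q1 and 0.0126% in q2. In q1, 7 of the 10 lay below 1 FPKM, as did 237 of the 6363 genes (3.72%). The median gene of the table had 38.2 FPKM in q1 and 45.1 in q2, and 0 of the 10 genes were above it in q1 and 3 in q2. In bulk cultures, more mitochondrial genomes per cell and more transcript per genome cannot be told apart. Nor can either be told from a different capture of mitochondrial transcripts in library preparation, which was not measured.

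**Figure D1:**
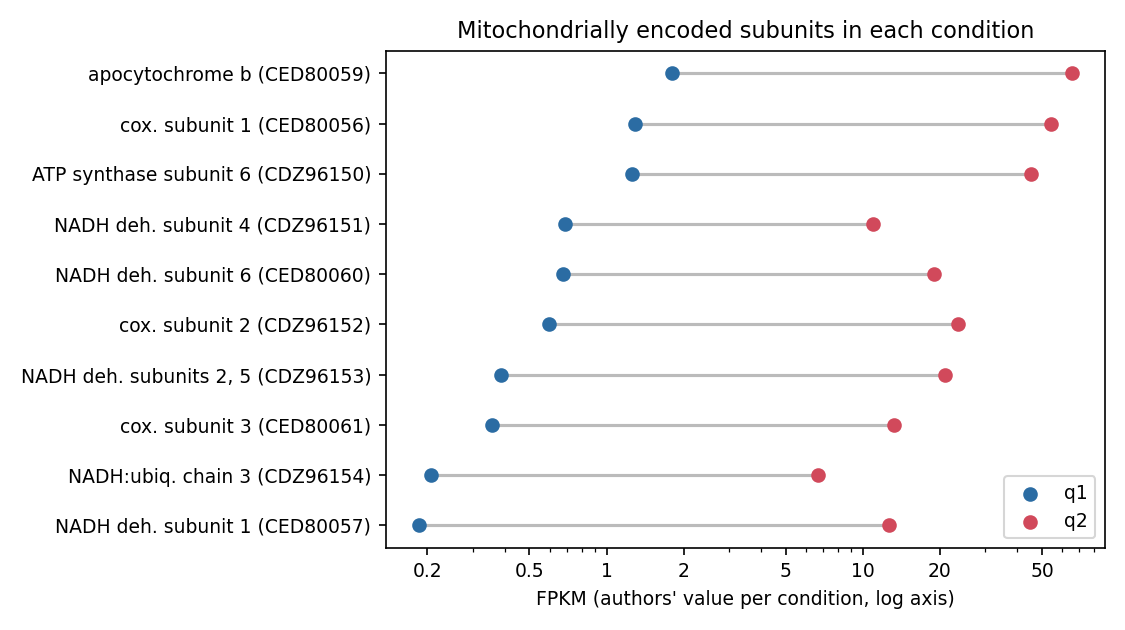
FPKM on a log axis for the 10 mitochondrially encoded genes, with the authors' value for q1 in blue and for q2 in red and a line joining the pair ("cox." stands for cytochrome c oxidase, "deh." for dehydrogenase). The q1 values lie between 0.185 and 1.79 and the q2 values between 6.71 and 65.5. The genes were selected on a high ratio of q2 to q1, which favours separate ranges.

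Among the cytochrome c oxidase subunits, subunit 1 (CED80056, scaffold 22, 404 to 2280) carries the heme a and the heme-copper centre where oxygen is reduced. Per the authors' deposited table its FPKM was 1.29 in q1 against 54.4 in q2, which is 42.0-fold higher, or 5.39 on the log2 scale with an implied standard error of 1.47. Implied standard errors are worked back from the authors' p-value, taken as a normal tail probability, where it lies above its floor of 5e-05. They restate that p-value, not the authors' test statistic or the spread between cultures. Subunit 2 (CDZ96152, scaffold 62, 373 to 1203) binds the copper pair that takes electrons from cytochrome c, and had 0.595 and 23.5 FPKM in that table, 39.5-fold apart. Subunit 3 (CED80061, scaffold 247, 700 to 1383), a core subunit without metal centres, had an FPKM of 0.356 in q1 against 13.3 in q2, 37.2-fold apart in the authors' deposited table. The log2 ratios of the 3 subunits thus lay between 5.22 and 5.39, closer together than the implied standard errors of subunit 1 and of subunit 3 (1.56). Subunit 2 has none, since its p-value is at the floor. Their levels differed more: subunit 1 was 2.18 times subunit 2 in q1 and 2.32 times in q2, and it was 3.63 and 4.11 times subunit 3.

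Apocytochrome b (CED80059, scaffold 176, 1043 to 1615), the subunit of complex III that holds the b hemes, had the highest level of the 10 in each condition. The authors' deposited table gives it 1.79 FPKM in q1 against 65.5 in q2, 36.5-fold higher. ATP synthase subunit 6 (CDZ96150, scaffold 28, 749 to 1588), which forms part of the proton channel of the enzyme's membrane sector, came next after cytochrome c oxidase subunit 1 in both, with 1.26 and 45.5 FPKM, a 36.1-fold difference. On the log2 scale these are 5.19 and 5.17. Both genes reached the floor of the authors' p-values, as did cytochrome c oxidase subunit 2 and the gene named for NADH dehydrogenase subunits 2 and 5.

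A further cytochrome b gene that is not among the 10 lies on the same scaffold. It is called cytochrome b (CED80058, scaffold 176, 449 to 949) and ends 93 bases before apocytochrome b begins. Its FPKM per the authors' deposited table was 1.30 in q1 against 45.6 in q2, 35.1-fold apart with a q-value of 0.00570. Apocytochrome b was 1.38 times this neighbour in q1 and 1.44 times in q2. Whether the pair are pieces of a single gene was not tested.

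The 5 NADH dehydrogenase genes encode membrane-arm subunits of complex I, and their ratios were more spread than those of the other 5 genes. Their log2 ratios ran from 4.0 to 6.10, with a median of 5.02, while the other 5 lay between 5.17 and 5.39. Subunit 1 (CED80057, scaffold 55, 627 to 1151), which contributes to the ubiquinone-binding site, had the lowest q1 value of the 10 genes. Per the authors' deposited table its FPKM was 0.185 in q1 against 12.7 in q2, 68.7-fold apart with an implied standard error of 2.53 on the log2 scale. This was the highest ratio of the 10, yet the gene was the only one of them not called, with a p-value of 0.0157 and a q-value of 0.162. Its test statistic of 3.83 in that table was above those of 5 of the called genes, so the statistic and the p-value ranked these genes differently. The implied standard error of 2.53 follows the p-value and not the statistic.

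The gene named NADH dehydrogenase subunits 2, 5 and related proteins (CDZ96153, scaffold 102, 1487 to 3157) has a name that covers antiporter-like subunits of the proton-pumping arm. Its FPKM per the authors' deposited table was 0.388 in q1 against 21.0 in q2, 54.0-fold apart. Subunit 4 (CDZ96151, scaffold 43, 8 to 903), another antiporter-like subunit, had an FPKM of 0.688 in q1 against 11.0 in q2 in that table, 16.0-fold apart with an implied standard error of 1.26 on the log2 scale. That was the lowest ratio of the 10. Subunit 6 (CED80060, scaffold 188, 485 to 1047), a membrane-arm subunit, had 0.675 and 19.0 FPKM, 28.1-fold apart in the authors' deposited table. The gene named NADH:ubiquinone/plastoquinone oxidoreductase, chain 3 (CDZ96154, scaffold 179, 742 to 2193) had the lowest q2 value, at 6.71 FPKM against 0.207 in q1 in the authors' deposited table, 32.4-fold apart.

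Cuffdiff, the authors' test, called 9 of the 10 genes higher at a q-value below 0.05, and 0 lower, against 3.65% higher and 1.88% lower among the 6272 tested genes, and nothing is read from this since the same ratios chose the genes. The highest q-value among the 9 was 0.0334, for subunit 4 of NADH dehydrogenase, and the value outside the threshold was 0.162, for subunit 1. At a q-value below 0.01 there were 5, against 3.06% of tested genes in either direction, and below 0.10 there were 9, against 7.3%. By log2 ratio the 10 genes ranked between 11 and 60 among the 6254 tested genes with a value above 0 in both conditions. A further deposited sheet of 331 genes holds 9 of the 10 and leaves out NADH dehydrogenase subunit 1. It contains exactly the called genes that have a finite ratio.

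The number of fragments behind each value is unknown, but a nominal rate can be worked out. It is FPKM multiplied by the span of the locus in kilobases. This gives a gene's fragments out of each 1000000 mapped only if the whole span is transcript and the value carries no other correction. Neither condition was checked. The nominal rate came to 0.0969 for NADH dehydrogenase subunit 1 and 2.43 for cytochrome c oxidase subunit 1 in q1, the lowest and highest of the 10. For all 10 together it was 7.30. In q2 the nominal rate of the 10 genes together was 278, with 6.66 for the lowest and 102 for the highest. With a pseudocount of 1 FPKM added to both conditions, the 10 genes had log2 ratios between 2.67 and 4.59 with a median of 3.76, beside a median of 0.10 over all genes. On this scale cytochrome c oxidase subunit 1 (CED80056) stood highest, at 4.59, and NADH dehydrogenase subunit 1 (CED80057), highest without a pseudocount, stood at 3.53. Of the 237 other tested genes below 2 FPKM in q1, 35 were called higher (14.8%), against 3.65% of all tested genes.

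The make-up of the 10 genes within a condition does not depend on the overall difference between the conditions. Apocytochrome b, cytochrome c oxidase subunit 1 and ATP synthase subunit 6 together held 58.4% of the summed FPKM of the 10 in q1 and 60.7% in q2. Apocytochrome b alone held 24.1% in each, and ATP synthase subunit 6 held 16.9% and 16.7%. The 3 cytochrome c oxidase subunits held 30.2% in q1 and 33.4% in q2, and the 5 NADH dehydrogenase genes held 28.8% and 25.8%. The widest shift was that of NADH dehydrogenase subunit 4 (CDZ96151), from 9.24% to 4.03%, followed by cytochrome c oxidase subunit 1 (CED80056), from 17.4% to 20.0%. Without values per culture these shifts could not be set against a replicate error.

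**Figure D2:**
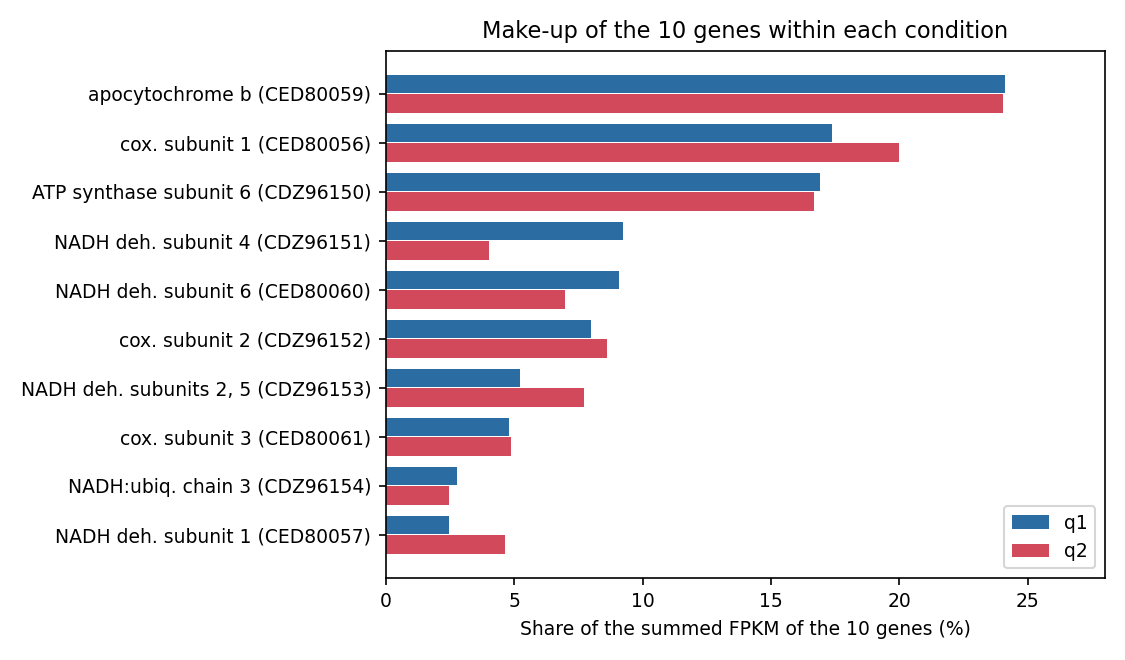
Share of the summed FPKM of the 10 genes held by each gene, in percent, in q1 (blue) and q2 (red), with the same abbreviations as in the plot of levels. Apocytochrome b holds 24.1% in each condition, and NADH dehydrogenase subunit 4 goes from 9.24% to 4.03%.

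Apocytochrome b, cytochrome c oxidase subunit 1 and ATP synthase subunit 6 held the top 3 places in each, in that order. NADH dehydrogenase subunit 4 ranked 4 in q1 and 9 in q2. Across the 10 genes, Spearman's rho between the q1 and q2 levels was 0.76 and Pearson's r of the log2 levels was 0.87. These describe 10 genes measured in the same libraries. The genes were selected on a high ratio of these same values, which ties the q2 level to the q1 level, so the coefficients support nothing further. The level span from the lowest to the highest gene was 9.73-fold in q1 and 9.78-fold in q2, and the ratios spanned 4.31-fold. The rho between locus span and log2 ratio was 0.02. No error is at hand by which neighbours in the order, such as cytochrome c oxidase subunit 1 and ATP synthase subunit 6 in q1, could be separated.

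The 10 genes share their position in the assembly, which the authors' locus column gives. They lie on 10 different scaffolds, and 9 of these hold no other gene of the table. The last gene on any of them ends at base 3157. Of the 90 scaffolds with a gene, 73 end their last gene before 10 kb, the furthest at 5111, and the other 17 reach at least 33765. The locus spans of the 10 genes were 525 to 1877 bases, and 7 of the 10 were a multiple of 3. No column of the table names an organelle, so the mitochondrial origin rests on the gene names and was not checked against sequence.

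Another 73 genes lie on 63 short scaffolds that hold none of the 10, and their values were spread widely. Of these, 23 were listed at 0 in both conditions and 47 were tested. Cuffdiff called 10 of the 47 higher (21.3%) and 2 lower, against 3.65% higher and 1.88% lower over all tested genes. Of the called genes, 5 were listed at 0 in q1. Of the 73, 41 had higher and 9 lower values in q2, against 3640 and 2664 of all 6363 genes. Over all 73 the median log2 ratio with a pseudocount of 1 FPKM was 0.55, with a range from -2.21 to 5.84. The median of the 10 genes was 3.76. The median of the 73 counts the 23 genes listed at 0 in both conditions as a ratio of 0. Whether any other short scaffold belongs to the mitochondrial genome was not tested. Among the genes called higher is one named atp synthase subunit mitochondrial (CDZ96333, scaffold 42, 184 to 802). Its FPKM per the authors' deposited table was 2.06 in q1 against 44.1 in q2, 21.5-fold apart with a q-value of 0.0112. Its name does not say which subunit it encodes.

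Other genes named for the respiratory chain and ATP synthase had no common direction. A search by name matched 61 genes of complexes I to V and cytochrome c, 60 of them on long scaffolds and CDZ96333 on a short one. The terms also took in genes that may not be subunits, such as those named intermediate-associated protein 30, Nuclear control of ATP synthase 2 and NADH-dehydrogenase (ubiquinone). Values were higher in q2 for 31 and lower for 30. Their median log2 ratio with a pseudocount of 1 FPKM was 0.09, or -0.01 relative to the median of all genes. Cuffdiff called 1 of the 61, CDZ96333, against 5.53% of all tested genes called in either direction. Before adjustment, at p below 0.05, there were 2 higher and 0 lower, against 10.5% higher and 4.13% lower over all tested genes.

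**Figure D3:**
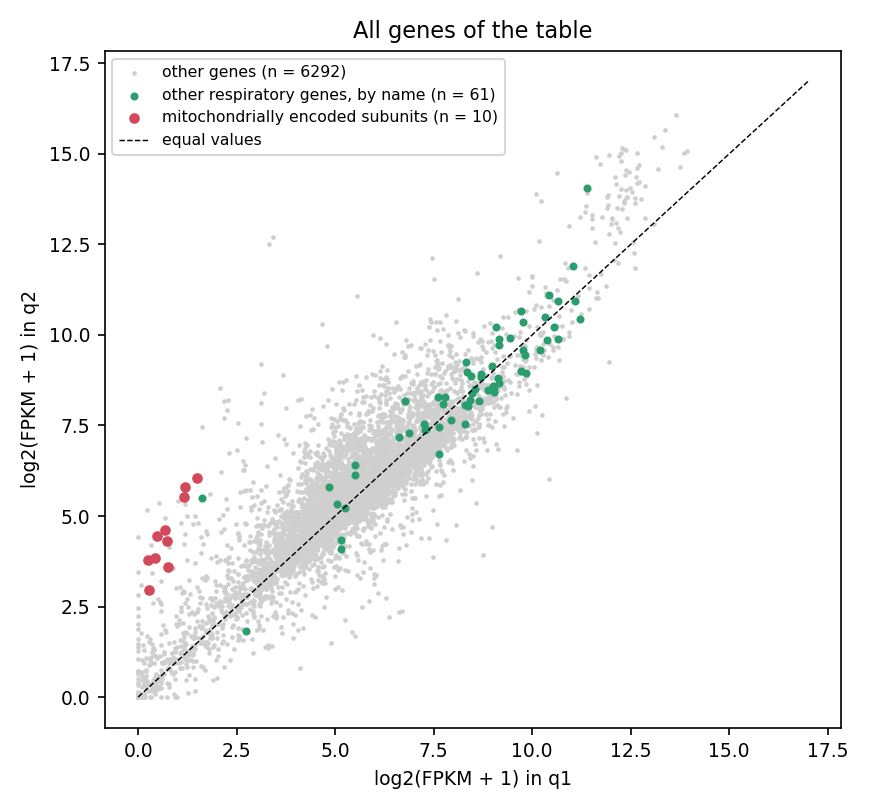
Each point is a gene, at log2(FPKM + 1) in q1 (horizontal) and q2 (vertical), with the 10 mitochondrially encoded subunits in red, 61 other genes of the respiratory complexes matched by name in green and the remaining genes in grey. The red points lie at the low end of the q1 axis and above the dashed line of equal values. The green points scatter around that line with a median log2 ratio of 0.09. An exception is the green point of CDZ96333, which lies near the red ones, at 2.06 FPKM in q1 and 44.1 in q2.

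The levels of these genes were far higher. Over the 61 genes the median FPKM stood at 405 in q1 against 369 in q2, which is 637 and 18.5 times the median of the 10. None of the 61 was below the highest of the 10 in q1, and 7 were in q2. All list medians of log2 ratios below are on the scale with a pseudocount of 1 FPKM. By complex, the median FPKM in q1 was 232 for complex I, 339 for complex II, 521 for complex III with cytochrome c, 921 for complex IV and 900 for complex V. Libraries were made with a kit that enriches polyadenylated RNA, and the share of mitochondrial transcripts it captures was not measured.

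Complex I was matched with 32 genes, of which 18 had higher and 14 lower values in q2, with 0 called and 1 higher at p below 0.05 before adjustment. Over all 6363 genes, 3640 had higher and 2664 lower values. Of tested genes 5.53% were called, and 10.5% were higher and 4.13% lower at p below 0.05. Short lists yield few calls at these shares, so nothing is read from counts of 0 here or below. With a pseudocount of 1 FPKM, the highest and lowest ratios both belonged to genes named NADH-dehydrogenase (ubiquinone). The search for alternative NADH dehydrogenases matched both as well. In the authors' deposited table CDZ97938 had 108 and 289 FPKM, and CED84972 had 199 and 104. Without a pseudocount the lowest was a gene named for the MLRQ subunit (CDZ97308), with 5.62 and 2.52 FPKM. Its log2 ratio was then -1.16, against -0.94 for CED84972. An alternative oxidase (CED82125), an enzyme that passes electrons from ubiquinol to oxygen without complexes III and IV, had an FPKM of 13.1 in q1 against 9.48 in q2 in the authors' deposited table, with a q-value of 0.685. Named after its value was seen, it completed a list of 3 genes with 0 called and 0 at p below 0.05 before adjustment.

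Complex II, whose subunits all belong to the nuclear genome in fungi, was matched with 4 genes, 2 of them higher and 2 lower, with 0 called and 0 at p below 0.05 before adjustment. Its succinate dehydrogenase gene CED83868 had 325 and 506 FPKM per the authors' deposited table, and the cytochrome b subunit CED82885 had 405 and 286. For complex III and cytochrome c, 8 of 9 genes had lower values in q2, against 2664 of all 6363 genes. Of the 9, 0 were called, against 5.53% of tested genes, and 0 passed p below 0.05 before adjustment. The median log2 ratio was -0.42. The core subunit QCR2 (CDZ97107), with 508 and 563 FPKM per the authors' deposited table, was the exception. The lowest ratio there was that of a cytochrome c gene (CED82531), the soluble electron carrier, with 34.8 and 16.2 FPKM (q 0.387). Another gene named cytochrome c (CED82532) had far higher levels, at 2367 and 1380 FPKM (q 0.683).

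Complex IV was matched with 5 genes, 2 higher and 3 lower. Against 5.53% of tested genes called in either direction, 0 of the 5 were called, and 0 passed an unadjusted p of 0.05. Their median log2 ratio was -0.22, beside 4.59, 3.94 and 3.39 on the same scale for the mitochondrially encoded subunits 1, 2 and 3. The gene named cytochrome c oxidase family protein (CDZ97233) had 2676 and 16945 FPKM per the authors' deposited table, with a q-value of 0.656. Chain VI (CED85105) had 921 and 496 FPKM, with a q-value of 0.568. Complex V was matched with 11 genes, 8 higher and 3 lower, with a median of 0.34, and CDZ96333 was the called gene. Subunit d (CDZ98062), part of the stator stalk, had the lowest ratio, with 1167 and 772 FPKM per the authors' deposited table.

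**Figure D4:**
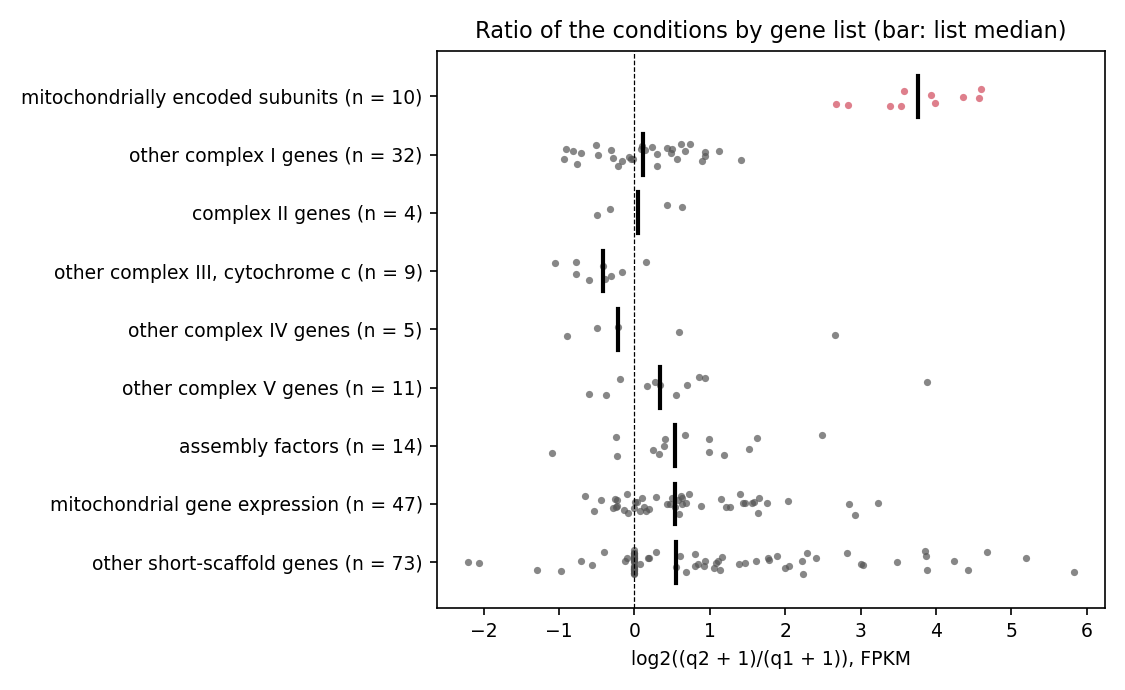
Log2((q2 + 1)/(q1 + 1)) on FPKM for each gene of 9 lists, with a vertical bar at the list median and the mitochondrially encoded subunits in red. The red median is 3.76, and the medians of the other lists lie between -0.42 and 0.55. The short-scaffold list includes 23 genes at 0 in both conditions, plotted at a ratio of 0.

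Genes that assemble the complexes or express the mitochondrial genome were matched by name too. Of 14 assembly genes, 11 had higher values in q2, as did 3640 of all 6363 genes, and 0 were called, against 5.53% of tested genes. At p below 0.05 before adjustment 4 were higher and 1 lower, against 10.5% higher and 4.13% lower over all tested genes. Their median log2 ratio was 0.54. The highest was a cox17-domain protein (CDZ97286), a copper chaperone of cytochrome c oxidase in Saccharomyces cerevisiae, with 141 and 794 FPKM per the authors' deposited table (q 0.230). The lowest was a COX19 gene (CED82283), with 14.9 and 6.46 FPKM (q 0.0927). Another gene of that name (CED83607) was higher in q2, with 68.0 and 80.8 FPKM (q 0.899). COX12 and COX13, which are structural subunits of cytochrome c oxidase in Saccharomyces cerevisiae, fell into this list by the search terms.

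For mitochondrial gene expression, 47 genes were matched, mostly ribosomal proteins of the organelle. The terms also took in genes that may not act in expression, such as those named Mitochondrial DNA polymerase gamma and mitochondrial dna helicase. Values were higher in q2 for 35 and lower for 12, against 3640 and 2664 of all 6363 genes. Of the 47, 0 were called, against 5.53% of tested genes in either direction. Before adjustment 2 were higher and 0 lower at p below 0.05, against 10.5% and 4.13% of tested genes. The median log2 ratio of the 47 was 0.54. The highest was a mitochondrial polypeptide chain release factor (CDZ97423), with 21.0 and 207 FPKM per the authors' deposited table (q 0.0673). The ribosomal protein mrp2 (CED84617) was lowest, with 217 and 138 FPKM. The mitochondrial RNA polymerase RPO41 (CDZ98547), which transcribes the mitochondrial genome and is named here for that role after its value was seen, had 41.8 and 35.4 FPKM, with a log2 ratio of -0.24 and a q-value of 0.916 in that table. The search for RNA genes matched only a protein regulator of rRNA transcription (CDZ97129, 40.5 and 48.2 FPKM), so RNA quality was not gauged here.

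Genes with a pair of values like that of the 10 were sought among tested genes on other scaffolds, by the distance between log2(FPKM + 1) pairs and the median pair of the 10. With 1 value in each of 2 conditions this is likeness in 2 numbers only. The nearest was a hypothetical protein (CED83966), with 0.728 and 16.8 FPKM per the authors' deposited table (distance 0.249, q 0.426). It was followed by a hypothetical protein alone on scaffold 129 (CDZ97577, 0.258 and 17.4 FPKM, distance 0.422, q 0.0653). Next was an Immunoglobulin E-set gene (CED82352, 1.22 and 17.7 FPKM, distance 0.473, q 0.00226).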

How the data were processed

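The libraries came from total RNA and the Illumina stranded mRNA preparation, per the labels' protocols. Reads were handled with FastQC and Trimmomatic, then TopHat and the Cufflinks suite (Cuffdiff), per the submitters' processing notes. Their versions, the build and the gene models: not given in the sources used here. Per the file headers, the authors' deposited table holds FPKM values per condition, a log2 ratio (q2 over q1), the score of a test, and a p-value and q-value. The number of columns with per-sample values was 0, so no replicate test could be run. The header gives the value columns no unit, and FPKM is what Cuffdiff writes there.

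The log2 ratio recomputed from FPKM differed from the deposited one by at most 1.38e-05, and Benjamini-Hochberg adjustment over the 6272 tested genes gave the deposited q-value to within 5.26e-07. Starts are printed as the file's start plus 1, since among 458 spans under 600 bases 254 were then a multiple of 3, with 105 and 99 at the other remainders. A gene was called at a q-value below 0.05. The 10 genes, the 9 word lists and the alternatives were chosen with earlier results of these data known. Genes named by rule are the 10, genes sharing their scaffolds, called genes and the extremes of each list, and the 3 nearest in pattern. The extremes are the highest and lowest ratio with a pseudocount of 1 FPKM. Others were named after their values were seen: CED82125, CDZ98547, CDZ97308, CED82532 and CED83607. Alternatives changed the pseudocount (1 FPKM), centring, low-value filter, q threshold and adjustment. Python 3.11.15, pandas 2.3.3, numpy 2.4.6 and scipy 1.17.1 were used, and the adjustment was tested on simulated data.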

Additional observations from a re-analysis of the deposited data

How the results depend on the processing

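For the 10 mitochondrially encoded genes the median log2 ratio of 3.76 became 5.20 with no pseudocount, 5.08 with 0.1 FPKM, 2.17 with 5 FPKM and 3.65 after centring on the median of all genes. A filter at a mean of 1 FPKM left it as it was. The 9 called genes became 5 at a q-value below 0.01 and stayed 9 at 0.10 and after adjustment over genes with a mean of at least 1 FPKM. For the 61 other respiratory genes the median of 0.0896 was 0.0901 with no pseudocount and 0.0901 and 0.0874 with 0.1 and 5 FPKM, -0.0140 after centring and -0.0358 for 56 genes recast by hand, a list chosen after seeing the data. The sign of that median therefore depends on the scaling and on the list. The count of 1 called among them was 0 at a q-value below 0.01 and 0 in the recast list, which leaves out CDZ96333. The assembly median of 0.54 was 0.54, 0.54, 0.52 and 0.43 with no pseudocount, 0.1 FPKM, 5 FPKM and centring, and 0.64 in the recast list. For mitochondrial gene expression the median of 0.54 was 0.57, 0.56, 0.49 and 0.43 under the same 4 settings. Each of these last lists had 0 called, and 1 at a q-value below 0.10. Apart from what construction shows, the cause was not tested. No paired analysis was possible because the table holds 1 value per condition, which also prevents leaving out a culture.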
